A study of Homo sapiens with 12 samples.

Results

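The response of 786-O cells to myoblasts was measured on 6 of the series' 12 arrays, chosen by their labels: 3 replicates of 786-O cultured with myoblasts and 3 of 786-O cultured alone. 786-O is a human clear cell renal carcinoma line. Each well received 30000 cancer cells, which were left for 6 h. In the co-cultures 10000 primary myoblasts were then added to the upper chamber of a transwell plate, and RNA was extracted 12 h later. The myoblasts came from limbs of 5-day-old mice of a GFP transgenic C57BL/6 strain, so that tumour and muscle RNA were of different species. The labels also describe the mixture as 1:1 and the cultures as plated at 80% confluence. They do not say whether wells of 786-O alone held an empty insert, nor which medium the shared wells held. No time of RNA extraction was found for the wells of 786-O alone, and no statement that the replicates were separate cultures. The RNA of each well is a bulk sample, in which fewer cells of a type and less RNA per cell cannot be told apart.

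In 786-O cells the von Hippel-Lindau protein is not functional, and hypoxia-inducible factor 2, encoded by EPAS1, therefore stays active in normal oxygen. Myoblasts are proliferating muscle progenitors that secrete growth factors, cytokines and matrix proteins, and a transwell membrane lets such soluble factors pass while it keeps the cells apart. Several gene families act as early readouts of such signals. EGR genes follow growth factor signals through ERK and serum response factor, ID genes follow bone morphogenetic proteins through SMAD factors, metallothionein genes follow free zinc through the factor MTF1, and a set of hypoxia targets follows the hypoxia-inducible factors.

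Of 12313 genes tested, 217 (1.76%) were called at an adjusted p under 0.05, 154 higher (1.25%) and 63 lower (0.512%) with myoblasts. With each array centred on its median 113 of 246 calls were lower. A change of at least 2-fold was found for 54 of the genes called higher and 12 of those called lower. The groups of all 217 called genes were free of overlap, as were those of 34.9% of all genes tested. In a single simulated data set 20 of the fit's 175 calls were false, a larger share than the threshold. It gave all arrays of a group the same spread, and a single draw does not estimate the fit's rate of false calls. Co-culture replicate 2 stood apart from the other arrays. Its ratio of 3′ to 5′ signal for the control probe sets of ACTB was 7.22 against 3.171 to 3.843 on the other 5 arrays, and for GAPDH it was 1.84 against 1.174 to 1.291. Without it 1164 genes (9.45%) were called, 665 higher (5.4%) and 499 lower (4.05%). Among them were all 217 in the same direction, which could not have turned, as their groups did not overlap. The balance of these 5 arrays turned with the setting: 605 genes were higher and 1051 lower with each array centred on its median, and 1242 higher and 5708 lower with no filter on dim probe sets. The RNA of co-culture replicate 2 is listed with an integrity score of 10, the same as that of the other 5 arrays. What raised its 3′ to 5′ ratios was not tested, nor was the part of this in single results. Values without this array stand beside those over 6 arrays. The shares of all genes called in each fit stand beside the counts of called genes in the lists below. The lists were chosen with earlier results of these data known, so a count above that share is not independent evidence.

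**Figure D1:**
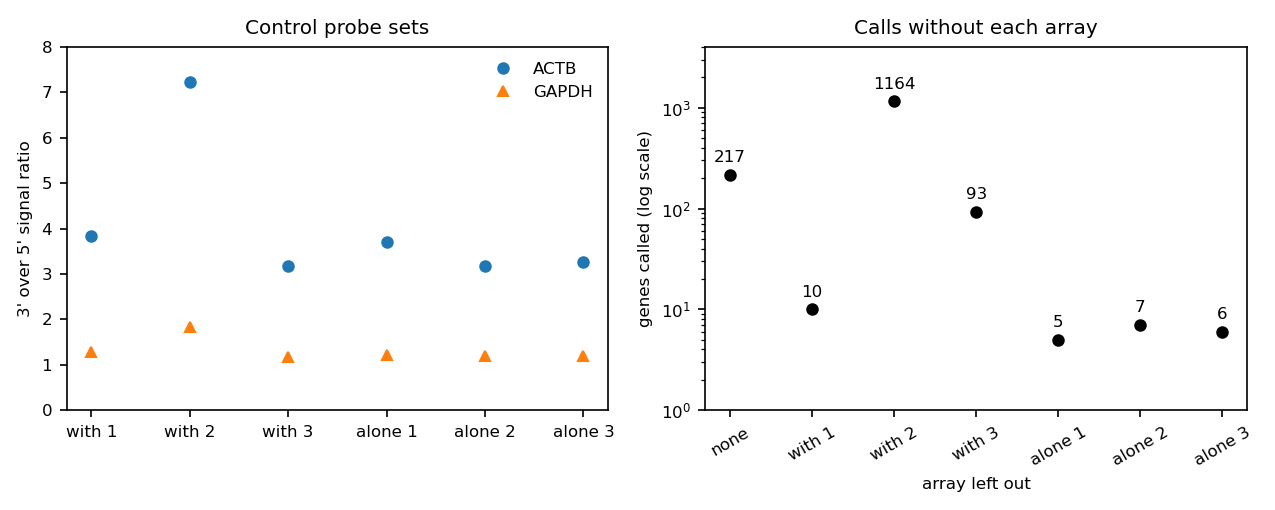
Left, ratio of 3′ to 5′ signal of the ACTB and GAPDH control probe sets on each array with myoblasts or alone; right, number of genes called (log scale) with all arrays and without each one. Co-culture replicate 2 has the highest ratio of both controls, and the count is 1164 without it but 5 to 93 without any other array.

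The calls rested on few arrays. The count fell to 10 without co-culture replicate 1, 93 without its replicate 3, and 5, 7 and 6 without replicates 1, 2 and 3 grown alone. DDIT4, NDRG1, EGR3 and MTSS1 were called in each of the 6 omissions, and EGR1 in 5 of them. The co-cultured arrays also varied more: the median SD of a gene was 0.17 on the log2 scale with myoblasts and 0.07 alone, and 81% of genes had the larger SD with myoblasts. These SDs include co-culture replicate 2. Across probe sets it correlated with replicates 1 and 3 at 0.9931 and 0.9913. Those 2 correlated at 0.9978 with each other, beside 0.9985 to 0.9986 among the arrays grown alone. In the median gene the log2 fold change was 0.02, or 0.00 without co-culture replicate 2.

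The array was checked for the cells in the wells. Of 28 renal carcinoma and tubule markers, 15 lay above a signal of 16 (log2 of 4, taken as the floor) on all 6 arrays, among them PAX8, CDH6 and VIM, while CA9, AQP1 and HNF4A lay under it on all 6. Of 24 skeletal muscle markers on the array, 21 lay under the floor on all 6 arrays, including the lineage factors PAX7, MYF5, MYOD1 and MYOG. The other 3, MEF2C, PAX3 and TNNT1, lay above it on all 6, with and without myoblasts. The summed signal of the 24 was 2171 to 2451 with myoblasts and 2179 to 2523 alone. MEF2C, at log2 signals of 10.66 to 11.02, was by far its brightest part, so the sum says little of muscle RNA. Of 12 leukocyte and endothelial markers 10 lay under the floor on all 6 arrays, PTPRC, CD3E, CD14, PECAM1 and CDH5 among them, but the summed signal was higher with myoblasts, at 121.2 to 191.8 against 85.86 to 108.3. CD74, the invariant chain of MHC class II, had log2 signals of 6.11, 7.14 and 6.69 with myoblasts and 5.13, 5.82 and 5.85 alone, and CSF1R, a macrophage receptor, had 2.53, 2.21 and 4.11 against 2.09, 2.09 and 2.12. The part of such cells in the results was not tested. The probes are for human sequences, and how far mouse transcripts bind to them was not tested. ACTB, the reference actin, differed by 0.02 ± 0.03 (SE, n = 3 per group, adjusted p = 0.641) and GAPDH by 0.01 ± 0.02 (adjusted p = 0.777).

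**Figure D2:**
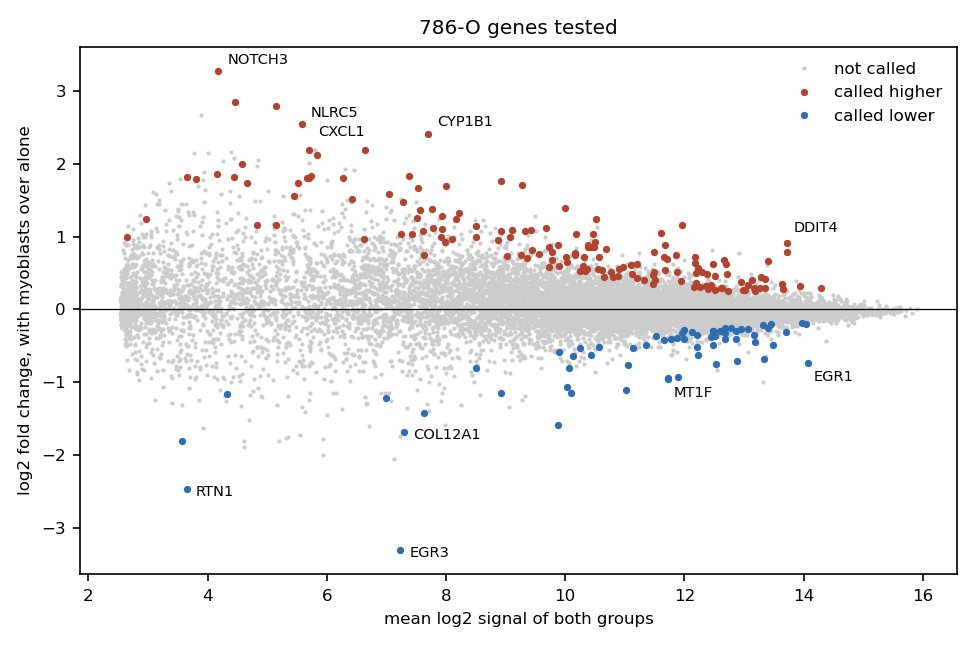
Mean log2 signal of both groups (x axis) and log2 fold change with myoblasts over alone (y axis) for the 12313 genes tested. Grey points were not called; the 154 genes called higher and 63 called lower are coloured, and called changes of dim genes are larger than those of bright ones.

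The early growth response genes EGR3 and EGR1 were lower in 786-O with myoblasts. EGR3, an immediate early zinc finger factor, had log2 signals of 5.69, 5.38 and 5.68 in co-culture replicates 1, 2 and 3 and 9.0, 9.04 and 8.61 alone. Every co-cultured array lay far under every array grown alone, and the fall was 9.88-fold (log2 fold change -3.30 ± 0.18, SE, adjusted p = 0.00289), or 9.22-fold without co-culture replicate 2 (adjusted p = 0.00281). EGR1, the family's most studied member and one of the brightest transcripts here, had log2 signals of 13.68, 13.75 and 13.70 with myoblasts and 14.35, 14.50 and 14.47 alone. Its log2 signal fell by 0.73 ± 0.05 (adjusted p = 0.00456; fall of 0.75 and adjusted p = 0.00395 without co-culture replicate 2), and its other, dimmer probe sets stood at -0.90 and -2.66. Without replicate 3 grown alone the adjusted p of EGR1 was 0.0631. EGR2 stood at -0.63 ± 0.25 and was not called (adjusted p = 0.191; -0.77 and 0.0945 without co-culture replicate 2).

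Serum response factor binds CArG boxes, and the EGR1 promoter is shown because its start region holds them. In the RefSeq window (GRCh38.p14, chr5:138465229-138465528, plus strand), which runs from 250 bases before to 50 after the start, the 2 capital stretches are CArG boxes found by a search of the sequence.
EGR1: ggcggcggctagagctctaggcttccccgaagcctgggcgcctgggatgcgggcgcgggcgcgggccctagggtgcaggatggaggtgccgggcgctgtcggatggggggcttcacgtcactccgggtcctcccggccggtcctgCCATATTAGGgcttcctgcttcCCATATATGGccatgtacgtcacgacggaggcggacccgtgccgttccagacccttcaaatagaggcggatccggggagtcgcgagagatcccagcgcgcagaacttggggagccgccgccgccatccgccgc
A CArG box was found in this window for 1.06% of 9740 promoters of tested genes, and for 2 of the 19 immediate early genes with a promoter in the table. Such a match is a feature of the sequence and does not show that a factor was bound.

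SPRY4 of the ERK feedback list and HBEGF of the growth factor list were also called lower. SPRY4, a feedback inhibitor of receptor tyrosine kinase signalling, had log2 signals of 7.22, 6.54 and 7.0 with myoblasts and 8.41, 8.26 and 8.35 alone. The groups lay clear of each other with co-culture replicate 2 lowest, and SPRY4 fell 2.67-fold (log2 fold change -1.42 ± 0.20, adjusted p = 0.0342; 2.35-fold without that array, adjusted p = 0.0113). HBEGF, a ligand of the EGF receptor, had log2 signals of 10.63, 10.82 and 10.59 with myoblasts and 11.49, 11.44 and 11.40 alone and fell by 0.76 ± 0.08 (adjusted p = 0.016; by 0.83 without co-culture replicate 2, adjusted p = 0.00395). Outside the lists, SERTAD1, a regulator of E2F-dependent transcription, fell 2.22-fold from 9.55, 9.48 and 9.45 alone to 8.30, 8.45 and 8.28 (adjusted p = 0.0134; 2.3-fold without co-culture replicate 2). RGS4, which shortens G protein signals, fell 2.23-fold (adjusted p = 0.036; 1.95-fold without co-culture replicate 2), with its other probe set at -1.66. For SPRY4, HBEGF, SERTAD1 and RGS4 the adjusted p reached 0.194, 0.123, 0.114 and 0.195 when single arrays grown alone were left out.

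Most other members of these lists were not called. Of 26 immediate early factors 0 were called higher and 2 lower, beside 1.25% and 0.512% of all genes, with a median log2 fold change of 0.04. Without co-culture replicate 2 the counts were 1 and 4, beside 5.4% and 4.05%. JUN, KLF10 and KLF6 stood at -0.18, -0.28 and 0.12 and were not called over all arrays, and at -0.18, -0.35 and 0.13 they passed without co-culture replicate 2. Of 23 genes of ERK feedback SPRY4 alone was called lower and 0 higher, with a median of -0.04. DUSP5 and SPRED1, an ERK phosphatase and a RAS inhibitor, both stood at -0.32 (adjusted p = 0.117 and 0.0684; -0.41 and -0.28 without co-culture replicate 2, where both passed). ETV5 and IL17RD of the same list stood at 0.11 and 0.57 (0.09 and 0.59 without that array) and did not pass in either fit. PHLDA1, induced by growth factors, stood at 0.30 (adjusted p = 0.116) and at 0.40 without co-culture replicate 2 (adjusted p = 0.00757). Of 23 growth factor receptors and ligands HBEGF was the 1 called, with a median of -0.01, and 0 were called higher and 3 lower without co-culture replicate 2. The EGF receptor ligands EREG and TGFA stood at 0.29 and 0.16 (0.25 and 0.16 without that array) and passed in neither fit.

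Signals of probe sets named for 3 metallothioneins and of the zinc exporter SLC30A1 fell. Metallothioneins are small cysteine-rich proteins that hold zinc and copper, and SLC30A1 moves zinc out of the cell. Of 10 measured genes of the list 4 were called lower (SLC30A1, MT1F, MT1X and MT1G) and 1 higher (SLC39A10, a zinc importer), beside 0.512% and 1.25% of all genes. The median log2 fold change was -0.53, from -0.60 to -0.15 over the alternatives tried. Without co-culture replicate 2 it was -0.41, and 7 were called lower and 1 higher, beside 4.05% and 5.4% of all genes. Groups of 8 genes lay apart with the co-culture lower, a state that 15.3% of all genes showed. Metallothionein probe sets may bind several of these transcripts, as set out below, so these counts are not of separate genes.

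SLC30A1 had log2 signals of 11.32, 11.05 and 11.38 with myoblasts and 12.31, 12.17 and 12.11 alone. It fell 1.92-fold (log2 fold change -0.94 ± 0.10, adjusted p = 0.0161), or 1.79-fold without co-culture replicate 2 (adjusted p = 0.00641), and its 2 probe sets stood at -0.94 and -0.96. MT1F ran from 11.01 to 11.40 with myoblasts and from 12.14 to 12.26 alone and fell 1.94-fold (log2 fold change -0.95 ± 0.11, adjusted p = 0.0184), or 1.78-fold without co-culture replicate 2 (adjusted p = 0.00388). MT1X ran from 12.31 to 12.70 with myoblasts and from 13.18 to 13.27 alone (log2 fold change -0.71 ± 0.10, adjusted p = 0.0302). MT1G ran from 11.68 to 12.03 with myoblasts and from 12.51 to 12.55 alone (-0.63 ± 0.10, adjusted p = 0.0417). On each of these 4 genes co-culture replicate 2 was the lowest array, and its part in the size of the falls can be read from the values without it, -0.84, -0.83, -0.61 and -0.51 in the order named.

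Other members of the family moved the same way without passing over all arrays. MT2A, the most abundant form in many human cells, stood at -0.43 ± 0.10 (adjusted p = 0.0827) and passed without co-culture replicate 2 at -0.31 (adjusted p = 0.0147). MT1E stood at -1.0 ± 0.36 (adjusted p = 0.169), with 13.16, 11.90 and 13.39 with myoblasts and 13.82 on each array alone, and at -0.55 without co-culture replicate 2 (adjusted p = 0.0147). MT1HL1, a gene outside the list noticed after its values were seen, fell by 0.68 ± 0.10 (adjusted p = 0.036; by 0.56 without that array, adjusted p = 0.00281). The sequences of these genes are nearly alike and their probe sets carry the suffix of probes that bind several transcripts, so the signals of single metallothionein genes cannot be told apart. The other, dimmer probe set of MT1F stood at a log2 fold change of -0.19. SLC39A10, which carries zinc inward, rose by 0.42 ± 0.05 from 13.10, 13.12 and 13.21 to 13.58, 13.62 and 13.50 (adjusted p = 0.02; 0.40 and 0.0124 without co-culture replicate 2). Leaving out single arrays grown alone raised the adjusted p to at most 0.123 for SLC30A1, 0.126 for MT1F, 0.17 for MT1X, 0.203 for MT1G, 0.194 for MT1HL1 and 0.139 for SLC39A10.

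The promoters of MT1X and SLC30A1 are shown because MTF1 acts on such genes through metal response elements. Capitals mark the core of that element, TGCACNC or TGCGCNC on either strand, in RefSeq windows of 300 bases (GRCh38.p14; MT1X at chr16:56682220-56682519, plus strand, SLC30A1 at chr1:211579112-211579411, minus strand).
MT1X: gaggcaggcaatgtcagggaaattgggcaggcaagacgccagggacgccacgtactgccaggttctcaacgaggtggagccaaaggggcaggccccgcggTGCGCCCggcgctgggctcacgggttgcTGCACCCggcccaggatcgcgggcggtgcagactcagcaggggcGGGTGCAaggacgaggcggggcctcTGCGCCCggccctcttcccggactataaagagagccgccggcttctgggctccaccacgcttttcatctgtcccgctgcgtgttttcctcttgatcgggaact
SLC30A1: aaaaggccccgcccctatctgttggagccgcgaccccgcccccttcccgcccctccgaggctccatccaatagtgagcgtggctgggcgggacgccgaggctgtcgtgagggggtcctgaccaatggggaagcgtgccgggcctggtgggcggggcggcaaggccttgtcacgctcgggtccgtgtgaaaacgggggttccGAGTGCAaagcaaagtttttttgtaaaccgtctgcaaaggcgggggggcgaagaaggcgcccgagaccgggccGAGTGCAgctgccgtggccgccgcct
MT1X had 4 matches and SLC30A1 had 2. Of 6 list members with a promoter entry, 4 held a match, and so did 39.3% of the 9740 promoters, so that the letters alone are common. Promoters of MT1F and MT1G are not shown.

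**Figure D3:**
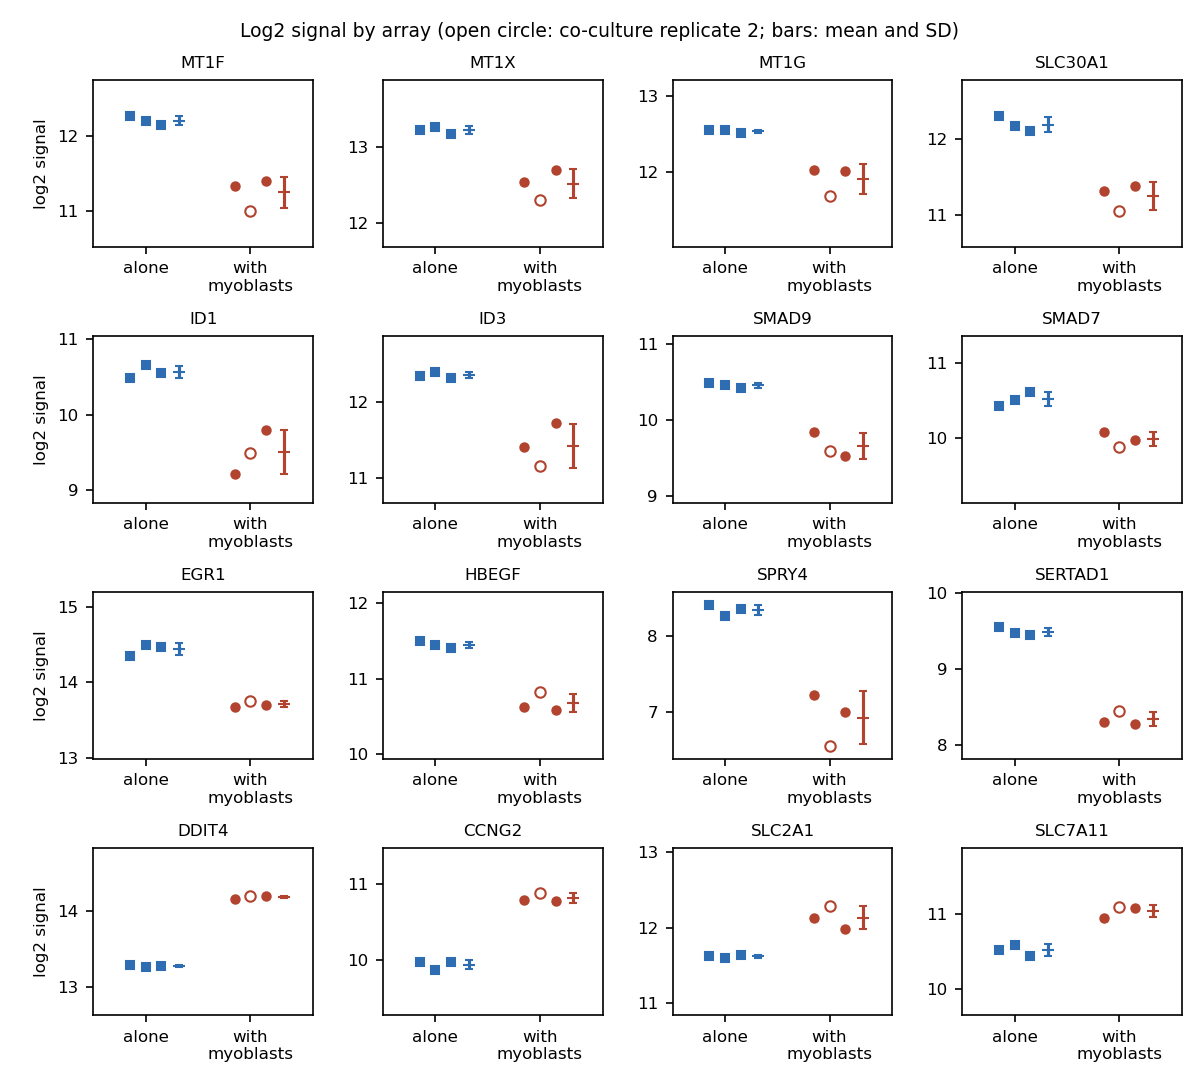
Log2 signal by array of 16 called genes, in panels of equal span; squares are 786-O alone, circles 786-O with myoblasts (open for co-culture replicate 2), and bars give the mean and SD (n = 3). The first 12 genes are lower and the last 4 higher with myoblasts, and no groups overlap.

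ID1, ID3, SMAD9 and SMAD7, which lie on the BMP branch of TGF-beta signalling, fell with myoblasts. ID1, a helix-loop-helix protein that blocks differentiation factors, had log2 signals of 9.22, 9.49 and 9.80 with myoblasts and 10.48, 10.65 and 10.55 alone. It fell 2.08-fold (log2 fold change -1.06 ± 0.16, adjusted p = 0.036), and 2.07-fold without co-culture replicate 2 (adjusted p = 0.0261). ID3, a close relative, had 11.41, 11.15 and 11.72 with myoblasts and 12.35, 12.39 and 12.32 alone and fell 1.91-fold (adjusted p = 0.036; 1.73-fold without that array, adjusted p = 0.0124). In both genes every co-cultured array lay under every array grown alone, and the co-cultured arrays were the more scattered.

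SMAD9, a transcription factor activated by BMP receptors, had 9.85, 9.59 and 9.53 with myoblasts against 10.49, 10.46 and 10.43 alone and fell by 0.80 ± 0.11 (adjusted p = 0.0302; by 0.77 without co-culture replicate 2). SMAD7, the inhibitory SMAD that limits both branches, fell by 0.53 ± 0.09 (adjusted p = 0.0492; by 0.49 without that array). ID2 (-0.52 ± 0.09, adjusted p = 0.05) and ID4 (-0.34 ± 0.07, adjusted p = 0.0614) did not pass over 6 arrays and passed without co-culture replicate 2, at -0.46 and -0.34 (adjusted p = 0.03 and 0.0382). Of 26 genes of the BMP and ID list 4 were called lower and 0 higher, beside 0.512% and 1.25% of all genes. The median was -0.13 (-0.22 to -0.03 over the alternatives). Without co-culture replicate 2 the counts were 6 and 1, beside 4.05% and 5.4% of all genes. The groups of 7 lay apart with the co-culture lower and of 1 with it higher, beside 15.3% and 19.6% of all genes. On the TGF-beta branch SMAD3, its main effector, rose by 0.35 ± 0.03 from 13.45, 13.46 and 13.50 to 13.84, 13.79 and 13.83 (adjusted p = 0.0134; 0.37 without co-culture replicate 2), and of 30 genes of that list SMAD3 and SMAD7 were the ones called. FN1, fibronectin, stood at 0.78 ± 0.16 (adjusted p = 0.0666; 0.59 and 0.0099 without co-culture replicate 2). Omitting an array grown alone took the adjusted p of ID1, ID3, SMAD9, SMAD7 and SMAD3 to at most 0.195, 0.194, 0.177, 0.228 and 0.114.

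Among targets of the hypoxia-inducible factors 4 rose, led by DDIT4 and NDRG1. DDIT4, which restrains mTOR complex 1, had log2 signals of 14.16, 14.19 and 14.19 with myoblasts and 13.28, 13.26 and 13.27 alone, a rise of 0.91 ± 0.03 (adjusted p = 0.000291; 0.91 and 0.000385 without co-culture replicate 2). NDRG1, a stress-induced growth suppressor, had 14.13, 14.11 and 14.12 with myoblasts and 13.34, 13.32 and 13.32 alone, a rise of 0.79 ± 0.03 (adjusted p = 0.000354; 0.80 and 0.000385 without that array). In both, the arrays of a group nearly coincided while the groups lay far apart. CCNG2, an unconventional cyclin that slows the cell cycle, rose by 0.88 ± 0.08 from 9.98, 9.87 and 9.97 to 10.80, 10.88 and 10.78 (adjusted p = 0.0128; 0.85 without co-culture replicate 2), with its other probe sets at 0.65 and 0.31. CA12, a membrane carbonic anhydrase, rose by 0.47 ± 0.07 (adjusted p = 0.0401; 0.41 without co-culture replicate 2), and its 6 probe sets ran from 0.32 to 0.75.

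Of 37 hypoxia targets 4 were called higher and 0 lower, beside 1.25% and 0.512% of all genes. Without co-culture replicate 2 the counts were 11 and 2, beside 5.4% and 4.05% of all genes. The median was 0.20 (0.12 to 0.24 over the alternatives), the groups of 19 genes lay apart with the co-culture higher and of 5 with it lower, beside 19.6% and 15.3% of all genes. ADM, a vasodilator peptide, stood at 0.53 (adjusted p = 0.0572), VLDLR, a lipoprotein receptor, at 0.59 (0.0683) and VEGFA, the main angiogenic factor, at 0.35 (0.107). Without co-culture replicate 2 the first 2 passed, at 0.43 and 0.61, and VEGFA did not, at 0.25 (0.0563). The glucose transporter gene SLC2A1 rose by 0.51 ± 0.08 from 11.62, 11.60 and 11.64 to 12.12, 12.29 and 11.98 (adjusted p = 0.0432; 0.43 and 0.0141 without co-culture replicate 2), with its other probe set at 0.73. It was the 1 called gene of 28 of glycolysis and lactate handling, whose median was 0.08. PFKFB4, which makes the activator of phosphofructokinase, stood at 1.01 ± 0.24 (adjusted p = 0.0882) and HK2, a hexokinase, at -0.25 (0.12), and neither passed without co-culture replicate 2 (0.82 and -0.18). With an array grown alone left out, the adjusted p of CCNG2, CA12 and SLC2A1 rose to at most 0.104, 0.203 and 0.208, while DDIT4 and NDRG1 stayed at or under 0.0131 and 0.0143.

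Of the factors themselves, HIF1A fell and EPAS1 was not called over 6 arrays. EPAS1 had log2 signals of 11.89, 11.50 and 11.89 with myoblasts and 11.49, 11.34 and 11.34 alone. It stood at 0.37 ± 0.12 (adjusted p = 0.144), and at 0.50 without co-culture replicate 2, where it passed (adjusted p = 0.0138). HIF1A, the gene of hypoxia-inducible factor 1 alpha, fell by 0.27 ± 0.04 from 13.21, 13.17 and 13.23 to 12.95, 12.98 and 12.87 (adjusted p = 0.0437; by 0.29 without co-culture replicate 2, adjusted p = 0.0151; up to 0.218 without single arrays grown alone). EGLN3, a prolyl hydroxylase that is itself a target, stood at 0.47 ± 0.13 (adjusted p = 0.118; 0.55 and 0.0469 without co-culture replicate 2). VHL ran from 5.23 to 7.57 across arrays and stood at 0.11 ± 0.60 (adjusted p = 0.931), a value that single arrays decided: it was 0.72 without co-culture replicate 2 (adjusted p = 0.288) and -0.45 to 0.72 over the 6 omissions.

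The DDIT4 promoter is printed with the core of the hypoxia response element, ACGTG or GCGTG on either strand, in capitals (RefSeq, GRCh38.p14, chr10:72273674-72273973, plus strand).
DDIT4: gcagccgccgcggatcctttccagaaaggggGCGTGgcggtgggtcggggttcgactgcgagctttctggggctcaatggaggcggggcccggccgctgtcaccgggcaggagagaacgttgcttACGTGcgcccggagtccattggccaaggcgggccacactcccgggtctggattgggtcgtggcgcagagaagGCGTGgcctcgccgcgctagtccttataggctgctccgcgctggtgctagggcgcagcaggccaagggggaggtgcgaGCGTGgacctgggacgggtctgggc
It held 4 matches. Of 30 hypoxia targets with a promoter entry, 26 held at least 1 match (86.7%), and 63.9% of all 9740 promoters did.

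Amino acid and redox genes showed many small positive differences, of which few were called. SLC7A11, the cystine importer, had log2 signals of 10.94, 11.08 and 11.07 with myoblasts and 10.52, 10.59 and 10.44 alone and rose by 0.51 ± 0.08 (adjusted p = 0.0401; 0.49 without co-culture replicate 2). Its other probe sets stood at 0.10 and -0.04, and the mean over probe sets was 0.19. It was the 1 called gene of 41 of the ATF4 amino acid response, of which 10 were called higher and 0 lower without co-culture replicate 2, beside 5.4% and 4.05% of all genes. The list's median was 0.18 (0.12 without that array, 0.11 to 0.25 over the alternatives), and the groups of 21 genes lay apart with the co-culture higher and of 2 with it lower, beside 19.6% and 15.3% of all genes. AARS1, an aminoacyl-tRNA synthetase, stood at 0.57 (adjusted p = 0.0554), TRIB3, a pseudokinase, at 0.65 (0.0614), ALDH1L2, a folate enzyme of mitochondria, at 0.91 (0.0639) and ASNS, asparagine synthetase, at 0.24 (0.0639), and these 4 passed without co-culture replicate 2, at 0.46, 0.74, 1.04 and 0.21. ATF4 itself stood at 0.01 ± 0.04 (adjusted p = 0.95; 0.05 without that array).

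A further rise was that of AKR1C3, an aldo-keto reductase and NRF2 target, by 1.00 ± 0.14 from 8.68, 8.68 and 8.39 to 9.65, 9.39 and 9.71 (adjusted p = 0.036; 1.10 without co-culture replicate 2). Of 29 NRF2 targets AKR1C3 and SLC7A11 were called higher and 0 lower, with a median of 0.12. CYP1B1, a cytochrome P450 induced through the aryl hydrocarbon receptor, had 9.10, 9.01 and 8.61 with myoblasts and 6.73, 6.14 and 6.61 alone. Its groups lay far apart, and it rose 5.31-fold (log2 fold change 2.41 ± 0.22, adjusted p = 0.0128; 5.13-fold without co-culture replicate 2), with its other probe sets at 2.71 and 2.70. Of 10 genes of that receptor's list CYP1B1 was the 1 called, and AHR stood at -0.26 ± 0.06 (adjusted p = 0.0901; -0.24 and 0.0455 without co-culture replicate 2). When an array grown alone was dropped, the adjusted p of SLC7A11, AKR1C3 and CYP1B1 rose to at most 0.203, 0.183 and 0.0937.

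Of genes of antigen presentation and inflammation, NLRC5, TAP1, CXCL1, NFKBIZ and VCAM1 rose. NLRC5, the transactivator of MHC class I genes, had log2 signals of 6.94, 7.04 and 6.56 with myoblasts and 3.58, 4.37 and 4.98 alone. The arrays grown alone ranged around the floor and the co-cultured ones lay above them, and the rise was 5.81-fold (log2 fold change 2.54 ± 0.36, adjusted p = 0.0348; 5.44-fold without co-culture replicate 2). TAP1, which carries peptides into the endoplasmic reticulum, rose by 0.73 ± 0.12 from 8.73, 8.66 and 8.59 to 9.38, 9.52 and 9.28 (adjusted p = 0.0417; 0.67 without co-culture replicate 2). These were the 2 genes called higher of 23 of MHC class I presentation, with 0 lower, beside 1.25% and 0.512% of all genes. The list's median was 0.19. PSMB9, an immunoproteasome subunit, stood at 0.72 ± 0.17 (adjusted p = 0.0866; 0.72 and 0.0617 without co-culture replicate 2). Of 35 interferon response genes 0 were called by limma over 6 arrays (2 higher and 0 lower without co-culture replicate 2), with a median of 0.16. An unadjusted p under 0.05 was reached by 7 of them, all higher, beside 23.6% of all genes (14.5% higher and 9.08% lower).

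CXCL1, a chemokine for neutrophils, had 6.75, 6.88 and 6.75 with myoblasts and 4.96, 4.68 and 4.19 alone and rose 4.53-fold (log2 fold change 2.18 ± 0.22, adjusted p = 0.0148; 4.4-fold without co-culture replicate 2). NFKBIZ, a nuclear regulator of NF-kappaB, rose by 0.48 ± 0.07 (adjusted p = 0.0324; 0.43 without co-culture replicate 2), with its other probe sets at 1.62 and -0.20, and VCAM1, a leukocyte adhesion molecule, by 0.83 ± 0.14 (adjusted p = 0.0487; 0.68 without that array). Of 33 genes of this list these 3 were called higher and 0 lower, beside 1.25% and 0.512% of all genes. The median of 0.19 ran from 0.03 to 0.38 over the alternatives. Without co-culture replicate 2 the counts were 7 and 1, beside 5.4% and 4.05% of all genes. ICAM1 stood at 0.52 (adjusted p = 0.0688) and CXCL8, interleukin-8, at 0.56 (0.0697), and both passed without co-culture replicate 2, at 0.45 and 0.48. Without single arrays grown alone the adjusted p of NLRC5, TAP1, CXCL1, NFKBIZ and VCAM1 rose to at most 0.171, 0.204, 0.108, 0.173 and 0.208.

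NOTCH3 rose from under the floor. This Notch receptor had log2 signals of 6.41, 5.52 and 5.52 with myoblasts and 2.45, 2.64 and 2.53 alone, so that every array grown alone lay under the floor. It was at least 3.52-fold higher with myoblasts (adjusted p = 0.0108; at least 3.91-fold and 0.00641 without co-culture replicate 2; up to 0.0937 without single arrays grown alone). Of 28 genes of the Notch pathway NOTCH3 was the 1 called, with a median of 0.02, and RBPJ, the DNA-binding partner of Notch, stood at -0.05 ± 0.04 (adjusted p = 0.452; -0.06 without co-culture replicate 2). The axon guidance receptor UNC5B had a mean under the floor with myoblasts and was not called over 6 arrays (adjusted p = 0.0972), though at least 2.87-fold lower, and it passed without co-culture replicate 2 (adjusted p = 0.0449). NTN1, netrin-1, stood at -0.61 ± 0.35 (adjusted p = 0.325; -0.75 without co-culture replicate 2). Of 34 axon guidance genes 0 were called in limma over 6 arrays, with 11 at an unadjusted p under 0.05 beside 23.6% of all genes, and 3 higher and 2 lower without that array.

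**Figure D4:**
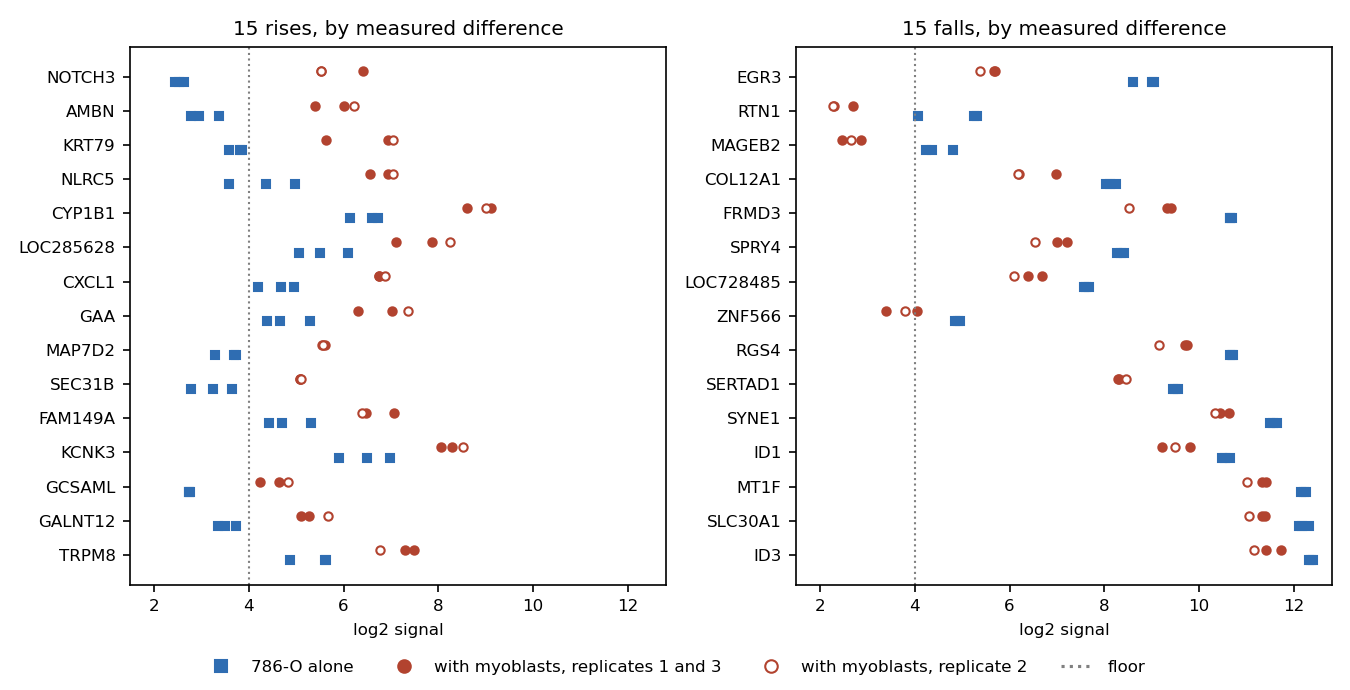
Log2 signal on each array of 15 rises (left) and 15 falls (right), the called genes with the largest measured log2 differences; squares are 786-O alone, circles 786-O with myoblasts (open for replicate 2), and the dotted line is the floor at 4. No gene's groups overlap; for 7 of the rises the arrays grown alone, and for 3 of the falls the co-culture mean, lie under the floor, so the order of these genes is not a ranking by size.

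The other rises among these 15 were of genes of mixed function. For 6 genes the arrays grown alone lay under the floor. AMBN, a protein of tooth enamel, was at least 3.67-fold higher with myoblasts (adjusted p = 0.0134). KRT79, a keratin, was at least 5.83-fold higher, MAP7D2, a microtubule-associated protein, at least 2.99-fold, GALNT12, which starts O-glycans, at least 2.55-fold, SEC31B, a coat protein, at least 2.13-fold and GCSAML at least 1.49-fold. Without co-culture replicate 2 these bounds were 3.24, 4.89, 2.99, 2.28, 2.12 and 1.36 in the order named, with an adjusted p of at most 0.0225. GAA, the lysosomal alpha-glucosidase, rose 4.33-fold (adjusted p = 0.0451; 3.68-fold without co-culture replicate 2), KCNK3, a potassium leak channel, 3.56-fold (0.0417; 3.29-fold), TRPM8, the cold-sensing cation channel, 3.49-fold (0.0432; 4.04-fold) and FAM149A 3.56-fold (0.0432; 3.89-fold). LOC285628 rose 4.55-fold (0.0477; 3.81-fold). The adjusted p of these 11 genes reached 0.0937 to 0.203 without single arrays grown alone.

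Among the falls, COL12A1, a collagen of fibril surfaces, had 6.21, 6.18 and 6.97 with myoblasts and 8.24, 8.04 and 8.12 alone and fell 3.21-fold (log2 fold change -1.68 ± 0.24, adjusted p = 0.036; 2.91-fold without co-culture replicate 2). FRMD3, a band 4.1 family protein, fell 2.99-fold (2.46-fold without that array; other probe set at -2.44), LOC728485 fell 2.33-fold (2.1-fold) and SYNE1, a nuclear envelope spectrin, fell 2.14-fold (2.04-fold), with the other 2 of its probe sets at -0.03 and 0.07. RTN1, a reticulon, was at least 1.84-fold lower, ZNF566 at least 1.87-fold and MAGEB2, a cancer-testis antigen, at least 1.39-fold, and all 3 passed without co-culture replicate 2 with the same bounds. Without single arrays grown alone the adjusted p of these 7 genes reached 0.1 to 0.218.

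Adhesion and matrix genes moved in both directions. LAMA3, a laminin chain, rose by 1.28 ± 0.17 (adjusted p = 0.026; 1.16 without co-culture replicate 2), with 0.21 for its dimmer probe set, and COL12A1 fell, the 2 calls among 42 collagens and matrix genes with a median of 0.22 (0.11 without co-culture replicate 2). GJB2, a connexin of gap junctions, rose by 0.79 ± 0.09 from 9.42, 9.36 and 9.39 to 10.29, 10.12 and 10.14 (adjusted p = 0.02; 0.82 without co-culture replicate 2). GJA1, the connexin of most gap junctions, fell by 0.21 ± 0.03 (adjusted p = 0.0417), and by 0.21 without that array. TIMP2, a metalloproteinase inhibitor, rose by 0.28 ± 0.05 (adjusted p = 0.0494; 0.24 without that array), with its other probe sets at 0.49 and 0.25. PLAU, urokinase, stood at 0.95 ± 0.19 (adjusted p = 0.0614; 0.76 and 0.024 without co-culture replicate 2). Of 28 YAP and TEAD targets CRIM1, a membrane-bound BMP antagonist, fell by 0.31 ± 0.04 (adjusted p = 0.0324; by 0.29 without co-culture replicate 2) and 0 were called higher, with a median of -0.10. EDN1, endothelin-1, stood at 1.26 ± 0.26 in the same list (adjusted p = 0.0684; 1.07 and 0.0483 without co-culture replicate 2). Without single arrays grown alone the adjusted p of LAMA3, GJB2, GJA1, TIMP2 and CRIM1 rose to at most 0.167, 0.152, 0.215, 0.228 and 0.19.

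**Figure D5:**
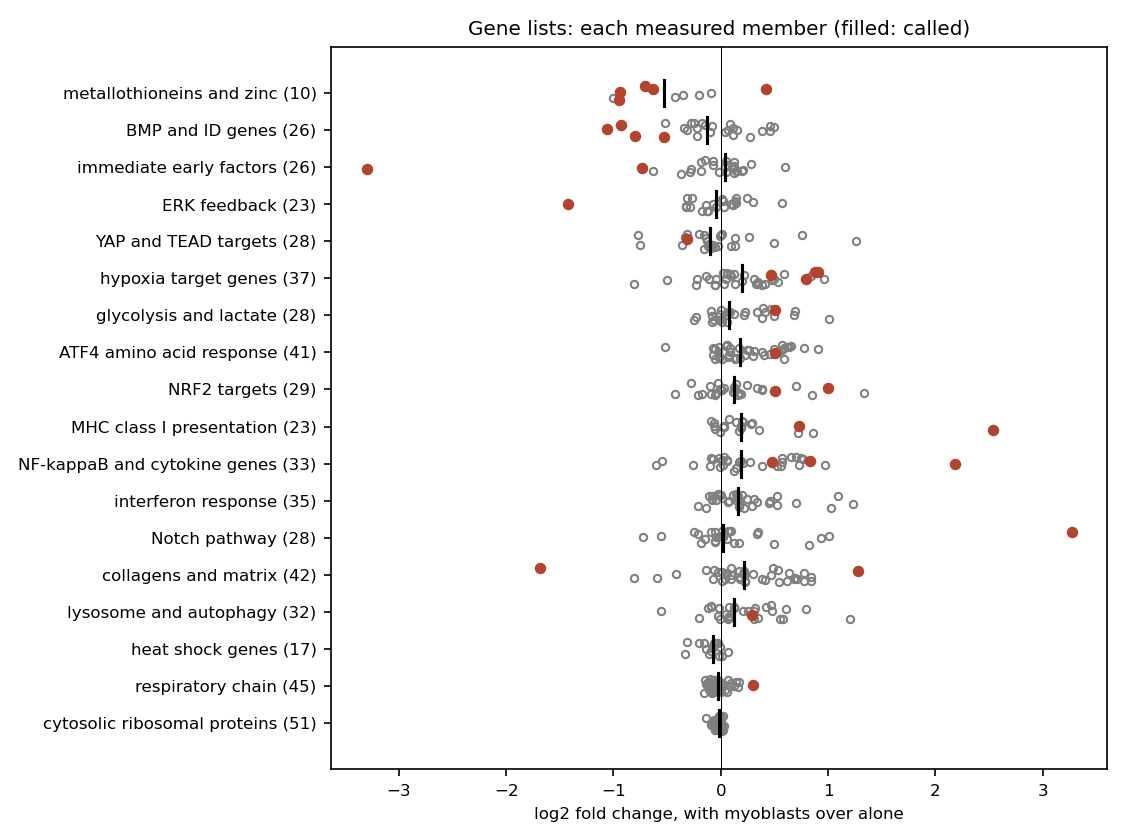
Log2 fold change with myoblasts over alone (x axis) of each measured gene of 18 lists, with the number measured in parentheses; filled points were called and the black line is the list's median. The median is -0.53 for metallothioneins and zinc, 0.20 for hypoxia targets and -0.02 for ribosomal proteins.

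Among renal markers NNMT, CA12 and VCAM1 rose, and in the list of p53 targets and apoptosis genes DDB2 rose and BIRC2 fell. NNMT, a methyltransferase abundant in renal carcinoma, rose by 0.48 ± 0.05 from 12.51, 12.52 and 12.41 to 12.90, 12.96 and 13.00 (adjusted p = 0.0158; 0.47 without co-culture replicate 2), with its other probe sets at 0.32 and 0.29. With CA12 and VCAM1 it made 3 of 17 measured renal markers called higher, with 0 lower, beside 1.25% and 0.512% of all genes. Without co-culture replicate 2 the counts were 7 and 0, beside 5.4% and 4.05% of all genes. DDB2, a p53 target that recognises ultraviolet damage, rose by 1.09 ± 0.12 (adjusted p = 0.0161; 1.14 without co-culture replicate 2) and BIRC2, an inhibitor of apoptosis, fell by 0.49 ± 0.07 (adjusted p = 0.0371; by 0.57 without that array). They were the 1 gene called higher and the 1 called lower of 35 in that list, beside 1.25% and 0.512% of all genes. The list's median was -0.02. Over 6 arrays, 0 of 51 cytosolic ribosomal proteins, 0 of 42 genes of G1 and S phase, 0 of 36 of G2 and M phase and 0 of 17 heat shock genes were called in limma. In the same order 0, 8, 6 and 4 genes had an unadjusted p under 0.05 beside 23.6% of all genes, the medians were -0.02, 0.01, 0.05 and -0.07, and 0, 3, 3 and 2 genes were called without co-culture replicate 2.

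Of other lists, INSIG1, which retains the sterol sensor SCAP, rose by 0.40 ± 0.04 (adjusted p = 0.016, with its other probe sets at 1.05 and 0.86). NFIL3, a repressor of clock and cytokine genes, rose by 0.48 ± 0.07 (adjusted p = 0.036), and ARRDC3, an arrestin-like FOXO target, by 0.46 ± 0.08 (adjusted p = 0.0487). CTSA, a lysosomal carboxypeptidase, rose by 0.29 ± 0.05 (adjusted p = 0.0417) and SDHA, a subunit of succinate dehydrogenase, by 0.30 ± 0.05 (adjusted p = 0.0443). Each was the 1 call of its list, except ARRDC3, which was 1 of 2. In the order named the lists had 34, 18, 21, 32 and 45 measured genes and medians of 0.03, 0.13, 0.06, 0.12 and -0.03. In SDHA's list, the respiratory chain, the groups of 3 genes lay apart with the co-culture higher and of 7 with it lower, beside 19.6% and 15.3% of all genes. Without co-culture replicate 2 these 5 called genes stood at 0.37, 0.43, 0.51, 0.26 and 0.25 in the order named, and all passed. Without single arrays grown alone the adjusted p of NNMT, DDB2 and BIRC2 rose to at most 0.114, 0.123 and 0.194, and of INSIG1, NFIL3, ARRDC3, CTSA and SDHA to at most 0.123, 0.195, 0.224, 0.208 and 0.208.

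Host transcripts of microRNAs were also among the called genes, and were chosen after their values were seen. The probe set named MIR21, which reads the precursor transcript that runs on from VMP1, had 13.08, 12.95 and 12.96 with myoblasts and 12.37, 12.47 and 12.30 alone, a rise of 0.62 ± 0.06 (adjusted p = 0.014; 0.64 without co-culture replicate 2). VMP1, an autophagy gene of the endoplasmic reticulum, rose by 0.66 ± 0.06 (adjusted p = 0.0134; 0.71 without that array), with 0.02 for its dimmer probe set. MIR23AHG, host of miR-23a, miR-27a and miR-24-2, rose by 0.68 ± 0.09 from 12.27, 12.40 and 12.30 to 13.05, 12.82 and 13.14 (adjusted p = 0.0255; 0.77 without co-culture replicate 2), with its other probe set at 0.35, and MIR600HG by 1.74 ± 0.17 (adjusted p = 0.0134; 1.63 without that array). The adjusted p of MIR21, VMP1, MIR23AHG and MIR600HG reached 0.114, 0.104, 0.167 and 0.114 without single arrays grown alone. The mature microRNAs were not measured by these probes, and their RefSeq sequences are given for identity, with the seed (bases 2 to 8) in capitals.
miR-21-5p: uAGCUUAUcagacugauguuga
miR-23a-3p: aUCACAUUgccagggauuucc
miR-27a-3p: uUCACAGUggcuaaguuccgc
miR-24-3p: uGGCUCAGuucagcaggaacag
The 4 seeds differ. Those of miR-23a and miR-27a share their first 5 letters.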

How the data were processed

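Human 786-O cells were profiled on HG-U133 Plus 2 oligonucleotide arrays, 3 with myoblasts and 3 alone. For each probe set the authors deposited linear signal intensities, 1 per array. MAS5 is the tool named in the submitters' processing notes, its version and any normalization between arrays are not given in the sources used here, and the arrays' median signals (5.555 to 5.733) nearly coincided. Signed fold scores and p-values of the authors' own comparisons, also deposited, are not reported here. The 54675 intensities of both deposited tables were identical, so 1 table was used.

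Intensities were taken to log2 with no added constant. Control probe sets (62), those with no symbol (13167) and those with several (1522) were left out. The remaining 39924 had 1 symbol, and the gene identifiers of 96.5% were found in RefSeq's gene table (GRCh38.p14). Probe sets with a mean log2 signal over the 6 arrays above the median probe set (2.536) entered, and per gene the one with the highest mean, which left 12313 genes. The groups were compared with limma 3.58.1 in R 4.3.3 (lmFit, and eBayes with an intensity trend). Tests were two-sided with Benjamini-Hochberg adjustment over all genes, and the threshold was an adjusted p of 0.05. The same fit was run without co-culture replicate 2. Errors are standard errors unless given as SD, 3 arrays per group limit the precision, and the p-values rest on the spread between these samples alone, which may be technical.

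A signal of 16 (log2 of 4) served as the floor. Where a group's mean lay under it, the fold is a lower bound against the floor. Genes named were the 15 rises and 15 falls with the largest measured log2 differences among called genes without overlap (some with a group under the floor, where differences have no order), up to 8 members of each list by smallest p, and a few genes fixed by name. The members and the 41 gene lists were chosen with earlier results of these data known. Lists were described by counts and medians, with no test of their own. Replicate numbers did not pair the samples: deviations of same-numbered arrays correlated at 0.009, -0.04 and -0.033 across genes. In a single simulated data set, with the same spread for all arrays of a group, the share of false calls lay above the threshold and only part of the small changes was recovered. A single draw does not estimate the rate of false calls. Over 6 arrays 20 of 175 calls were false, and without co-culture replicate 2 it was 20 of 193. A log2 change of 0.5 was recovered for 49.3% and 67.2% of the changed genes. Alternatives covered single arrays left out, a replicate block, normalization, filters, an added constant, the choice of probe sets, variance models, weights and thresholds. Centring on bright probe sets was added after the data were seen. Sequences came from RefSeq, and the figures were made in Python 3.11.15 with matplotlib 3.10.9.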

Additional observations from a re-analysis of the deposited data

How the results depend on the processing

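Of the named genes, 70 were called over 6 arrays, and all 70 kept their direction in each of the alternatives in which they were measured, while their calls did not last. Their groups did not overlap, so leaving out or weighting arrays, the block and other variance models could not have turned a direction. Another normalization or choice of probe sets could have. VMP1 stood at 0.02 without probe sets of suffix _s_at or _x_at. Leaving out 1 array gave 5 to 1164 calls in place of 217 (3 to 665 higher and 2 to 499 lower). The highest counts came without co-culture replicate 2. Starting from the 5 arrays without that replicate, which gave 1164 calls (665 higher, 499 lower), leaving out 1 more array gave 33 to 375 calls (20 to 173 higher and 13 to 202 lower). The causes were not tested.

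No pairing of samples was found, and with the replicate number as a block 0 genes were called in limma over 6 arrays (0 higher, 0 lower), with 2268 at an unadjusted p under 0.05 against 2908 without the block. The block was not run for the 5 arrays.

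Over 6 arrays the count was 77 with no filter on dim probe sets (54 higher, 23 lower; 19760 genes tested), 112 without probe sets of suffix _s_at or _x_at (80 and 32; 9377 genes tested), 123 with no intensity trend (95 and 28), 135 with group weights (96 and 39) and 3604 with array weights (2092 and 1512), which gave co-culture replicate 2 a weight of 0.125 and replicate 1 a weight of 3.52. Arrays centred on their median gave 113 lower of 246. Quantile normalization, centring on bright probe sets, an added constant of 16, mean probe sets and robust estimation gave 185 to 234 calls, the filter at the 75th percentile 249 and the filter at 3 arrays above the floor 317. At other thresholds the count was 6 at an adjusted p of 0.01 (3 and 3), 802 at 0.1 (518 and 284) and 66 with at least a 2-fold change (54 and 12).

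Without co-culture replicate 2 the count was 6950 with no filter (1242 higher, 5708 lower), 1782 with the filter at the 75th percentile (914 lower), 751 without _s_at or _x_at probe sets (401 higher), 432 with no trend (321 and 111), 494 with array weights (307 and 187) and 482 with group weights (303 and 179). Centred arrays gave 605 higher and 1051 lower. At an adjusted p of 0.01 it was 86 (60 and 26), at 0.1 it was 2606 (1436 and 1170) and with at least a 2-fold change 96 were higher and 37 lower. Signals near the floor limit what can be said of dim genes: of the 217 called genes 14 had a group mean under it and 2 had both.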

Other observations

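A few called genes outside the lists and the naming rule were noticed after their values were seen. MTSS1, a scaffold protein of membrane and actin, had log2 signals of 12.45, 12.66 and 12.53 with myoblasts and 11.43, 11.39 and 11.32 alone (rise of 1.16 ± 0.07, adjusted p = 0.00333; 1.11 without co-culture replicate 2), and was called in every omission of a single array. HTRA1, a secreted serine protease, had 12.10, 12.30 and 12.02 with myoblasts and 11.06, 11.07 and 11.15 alone (rise of 1.05 ± 0.08, adjusted p = 0.0108; 0.97 without co-culture replicate 2). CCDC80, a secreted matrix protein, fell by 0.75 ± 0.05 from 12.95, 12.92 and 12.84 to 12.13, 12.12 and 12.20 (adjusted p = 0.00456; by 0.74 without that array). The adjusted p of HTRA1 and CCDC80 reached 0.0937 and 0.0768 without single arrays grown alone. NEAT1, a nuclear long noncoding RNA, had 13.38, 12.58 and 13.39 with myoblasts and 12.73, 12.63 and 12.67 alone. Its difference of 0.44 ± 0.21 did not pass (adjusted p = 0.263), and without co-culture replicate 2, the array that lay apart from its group, it was 0.71 (adjusted p = 0.00281).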
